A study of Mus musculus with 18 samples.

Results

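T cell receptor V genes were followed here in regulatory T cells (Treg) of mice, across 5 groups labelled with a deletion and a wild-type group. Members were the genes whose mouse symbol starts with Trav (alpha chain) or Trbv (beta chain) and whose value was above 0 in at least 3 of 18 libraries. This rule took 103 of the 125 Trav and Trbv identifiers in a table of 35275 identifiers, 81 alpha genes on chromosome 14 and 22 beta genes on chromosome 6. Each gene was expressed as its share of the summed alpha or beta V genes of its library. The genes were thus chosen by whether their value lay above 0 in these libraries, and not by a difference between groups, but V gene usage was picked as a subject with earlier results on these libraries known.

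The groups were Dyrk1 deletion, HDAC1 deletion, HDAC2 deletion, Mef2c deletion, Mef2d deletion and wild type, with 3 libraries each. In the deletion groups a floxed allele was combined with Foxp3YFPcre, a Cre recombinase joined to yellow fluorescent protein and driven by Foxp3, the transcription factor that defines Treg. The wild-type group also carried Foxp3YFPcre, so Cre is shared by all 6 groups. The mice were males of 6 to 8 weeks, and the cells were passed over a CD4 column before sorting for YFP. The labels do not say whether Dyrk1 is Dyrk1a or Dyrk1b, name no strain, and do not say whether replicates came from separate mice, so p-values measure the spread between these libraries.

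Of the targeted genes, Hdac1 was at 32.0 ± 4.34 FPKM in the HDAC1 group and 119 ± 3.05 FPKM in wild type (SD, n = 3 each). None of Hdac2, Mef2c, Mef2d, Dyrk1a and Dyrk1b was called lower in its own group. Hdac2 was at 27.9 ± 0.937 FPKM in HDAC2 libraries and 28.3 ± 0.519 FPKM in wild type, Mef2c at 1.27 ± 0.594 FPKM in Mef2c libraries and 0.476 ± 0.151 FPKM in wild type, and Mef2d at 53.4 ± 0.561 FPKM in Mef2d libraries and 41.7 ± 4.59 FPKM in wild type. Gene totals do not resolve a deleted exon, so the groups are named below as their labels name them. The protocol text speaks of a deletion of Rcor1, which no label of these libraries carries. Rcor1 was at 17.6 to 19.0 FPKM as a mean in the deletion groups and 15.8 ± 0.561 FPKM in wild type (SD, n = 3). Replicate 1 of the Dyrk1, Mef2c and Mef2d groups stood apart by a high level of B cell markers. Depth, recovered from the steps of the values, came to between 15.9 and 24.1 M reads.

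Each T cell carries a receptor of an alpha and a beta chain whose variable part is put together in the thymus. At the beta locus a V segment is joined to a D and a J segment, and at the alpha locus a V to a J segment, and the joined exon is spliced to a constant region (Trac, or Trbc1 and Trbc2). V segments encode the loops that contact the MHC molecule and, with the joint, the peptide. In a sorted population of many clones, the RNA of a V gene sums over all cells that use it. The middle of the mouse alpha locus is duplicated, and copies carry a letter d or n in their symbol (Trav8d-1 beside Trav8-1). V segments lie ahead of the J segments, and alpha rearrangement can be repeated in a cell, with J-proximal V genes used early and more distant ones later.

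The copies that moved apart most in the results below differ by very few bases. The V exons of these genes are shown for this reason, from GENCODE M21 transcripts on mm10, plus strand, 5′ to 3′, with capitals at positions that differ within the pair. Trav8d-1 (chr14:52778711-52778995) and Trav8-1 (chr14:53469948-53470232) differ at 3 of 285 positions, an identity of 98.9%. Trav9d-1 (chr14:52792487-52792777) and Trav9-1 (chr14:53488277-53488567) differ at 2 of 291 positions, an identity of 99.3%.
Trav8d-1: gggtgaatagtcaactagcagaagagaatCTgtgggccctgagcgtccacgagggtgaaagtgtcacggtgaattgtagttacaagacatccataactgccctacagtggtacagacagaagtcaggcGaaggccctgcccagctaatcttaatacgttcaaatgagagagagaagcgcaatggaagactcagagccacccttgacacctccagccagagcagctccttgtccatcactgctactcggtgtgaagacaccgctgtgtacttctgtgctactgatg
Trav8-1: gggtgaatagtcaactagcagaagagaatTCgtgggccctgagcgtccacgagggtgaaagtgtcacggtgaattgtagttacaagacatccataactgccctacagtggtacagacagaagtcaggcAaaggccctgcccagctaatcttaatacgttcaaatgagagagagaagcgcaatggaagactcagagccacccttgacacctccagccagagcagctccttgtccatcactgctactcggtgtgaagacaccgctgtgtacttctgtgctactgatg
Trav9d-1: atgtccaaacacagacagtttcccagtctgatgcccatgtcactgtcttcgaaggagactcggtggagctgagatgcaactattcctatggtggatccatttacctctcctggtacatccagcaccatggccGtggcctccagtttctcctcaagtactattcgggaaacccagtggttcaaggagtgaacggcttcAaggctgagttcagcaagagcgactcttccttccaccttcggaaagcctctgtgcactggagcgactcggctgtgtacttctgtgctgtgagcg
Trav9-1: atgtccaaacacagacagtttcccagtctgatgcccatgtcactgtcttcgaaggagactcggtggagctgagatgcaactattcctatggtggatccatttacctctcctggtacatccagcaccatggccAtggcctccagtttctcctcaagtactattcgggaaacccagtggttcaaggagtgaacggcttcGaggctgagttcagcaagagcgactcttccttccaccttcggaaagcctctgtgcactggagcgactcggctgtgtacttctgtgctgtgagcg
Of all 100-base windows along their whole transcripts, 81.1% for Trav8d-1, 75.1% for Trav8-1, 66.8% for Trav9d-1 and 73.6% for Trav9-1 occurred in no other annotated Trav or Trbv gene. These percentages also depend on the annotated transcript length, and leader exons were not compared on their own.

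Trav14d-1 (chr14:52855867-52856166) and Trav14-1 (chr14:53554259-53554558), of which the last 300 bases of the V exon are printed, are shown as a pair in which the d copy moved and its partner did not pass the test. They differ at 13 of the 312 positions of the exon, an identity of 95.8%. Every 100-base window of Trav14d-1 also occurs in Trav14n-1, which is in the table and at 0 in all 18 libraries, so reads counted for Trav14d-1 could come from either copy.
Trav14d-1: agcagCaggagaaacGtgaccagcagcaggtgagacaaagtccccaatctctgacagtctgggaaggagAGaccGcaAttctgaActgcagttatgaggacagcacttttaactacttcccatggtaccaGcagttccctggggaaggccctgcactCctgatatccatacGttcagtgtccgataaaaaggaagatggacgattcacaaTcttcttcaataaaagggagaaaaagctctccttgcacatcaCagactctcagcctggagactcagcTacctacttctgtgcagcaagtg
Trav14-1: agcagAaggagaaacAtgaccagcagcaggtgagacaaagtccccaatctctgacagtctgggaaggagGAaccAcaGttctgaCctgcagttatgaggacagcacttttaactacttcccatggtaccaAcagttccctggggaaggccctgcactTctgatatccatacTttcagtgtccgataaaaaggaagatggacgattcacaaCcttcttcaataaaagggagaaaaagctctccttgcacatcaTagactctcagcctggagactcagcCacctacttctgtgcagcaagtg

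Trbv12-1 (chr6:41113775-41114067) and Trbv12-2 (chr6:41119072-41119364) are neighbours on chromosome 6 and are shown as the beta pair that fell together in the Mef2c group against wild type. They differ at 32 of 293 positions, an identity of 89.1%, and each transcript is unique in every 100-base window.
Trbv12-1: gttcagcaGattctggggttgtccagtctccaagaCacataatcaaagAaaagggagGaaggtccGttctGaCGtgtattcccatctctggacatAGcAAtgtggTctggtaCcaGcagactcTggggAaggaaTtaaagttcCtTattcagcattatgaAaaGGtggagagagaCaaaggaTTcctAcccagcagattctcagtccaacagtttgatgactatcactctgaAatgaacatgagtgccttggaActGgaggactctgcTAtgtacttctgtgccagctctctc
Trbv12-2: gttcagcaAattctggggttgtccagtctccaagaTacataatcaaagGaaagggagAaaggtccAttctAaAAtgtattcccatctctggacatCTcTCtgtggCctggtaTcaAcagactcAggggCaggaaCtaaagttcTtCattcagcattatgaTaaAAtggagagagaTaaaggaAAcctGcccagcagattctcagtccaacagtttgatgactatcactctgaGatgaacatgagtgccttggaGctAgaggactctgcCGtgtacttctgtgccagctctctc

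Copies set how firmly a value can be placed on a gene. Over the 103 members, a median of 88.1% of the 100-base windows of a gene occurred in no other annotated V gene, 39 members were unique in every window and 9 in none. Of the 22 identifiers under the threshold, 21 had no window of their own and the highest had 2.36%. Members at the threshold of 3 libraries were Trav4n-4, Trav9n-2 and Trav9n-3, which reached at most 0.155, 1.19 and 0.285 FPKM. Just under it lay 9 genes above 0 in 2 libraries, among them Trav11d and Trav12n-3, with highest values of 0.676 and 0.550 FPKM. Trav7-2, the alpha gene with the highest mean share, also had no window of its own, since all of them occur in Trav7d-2, an annotated gene with no row in the table.

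The alpha V genes summed to between 543 and 705 FPKM over the 18 libraries, from 3990 to 5723 reads a library, and the beta V genes to between 1271 and 1752 FPKM, from 8028 to 12579 reads. FPKM divides reads by gene length and depth, so these levels can be set beside each other. Usage was broad. The exponential of the Shannon entropy of the shares, which gives the number of equally used genes with the same evenness, was between 50.4 and 53.9 for alpha and between 17.2 and 17.7 for beta. The 8 alpha genes with the highest mean share over all 18 libraries, Mef2c ones included, were Trav7-2 (4.93%), Trav14d-1 (4.29%), Trav3-3 (3.90%), Trav4-4-dv10 (3.88%), Trav7-4 (3.81%), Trav14n-3 (3.37%), Trav13-1 (3.33%) and Trav14d-3-dv8 (3.29%). The 8 beta genes were Trbv3 (10.1%), Trbv13-2 (8.75%), Trbv1 (7.58%), Trbv16 (7.06%), Trbv5 (6.74%), Trbv13-3 (5.90%), Trbv13-1 (5.87%) and Trbv31 (5.79%). The order differs by group: in wild type alone Trav4-4-dv10 (4.18%) and Trav7-4 (3.71%) stood above Trav3-3 (3.59%). In wild type Trbv3 was at 9.47% ± 0.465 and Trav7-2 at 5.23% ± 0.665 (SD, n = 3).

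In the Mef2c group the alpha V sum was 543, 574 and 600 FPKM, against 634, 644 and 618 FPKM in wild type, so the groups did not overlap. HDAC1 replicate 3 (592 FPKM) and HDAC2 replicate 1 (591 FPKM) also lay in the Mef2c range, so the low sum was not particular to that group. In the Mef2c libraries the beta V sum was 1515, 1618 and 1752 FPKM, against 1536, 1672 and 1499 FPKM in wild type, which overlapped. Trac, the alpha constant region, was at 603 ± 63.8 FPKM in the Mef2c group and 698 ± 60.1 FPKM in wild type (SD, n = 3 each; log2 -0.21, limma adjusted p = 0.0941). Beta V sums of the Dyrk1 group (1321, 1476 and 1271 FPKM) and of the HDAC1 group (1358, 1386 and 1379 FPKM) lay under those of wild type. A lower sum in sorted bulk cells does not tell fewer receptor-bearing cells from less receptor RNA per cell. Shares set these sums aside, and the comparisons below use them unless a level is named.

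**Figure D1:**
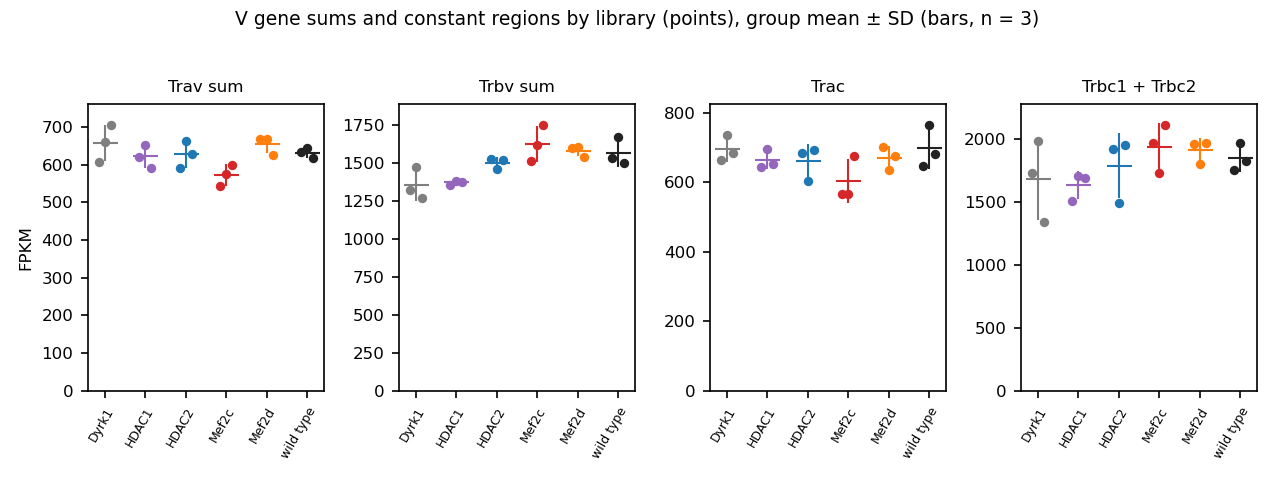
Summed FPKM of the Trav members, summed FPKM of the Trbv members, and FPKM of the constant regions Trac and Trbc1 plus Trbc2 in each of 18 libraries (points) by group, with mean ± SD (bars, n = 3). The Mef2c alpha sums lie between 543 and 600 FPKM, under the 3 wild-type values, and the Dyrk1 and HDAC1 beta sums lie under the wild-type ones. The alpha sums of HDAC1 replicate 3 and HDAC2 replicate 1 lie in the Mef2c range.

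Usage of alpha V genes in the Mef2c group stood apart from every other group. By share, 37 of 69 tested alpha genes passed the test against wild type, 17 higher and 20 lower, and 6 of 21 tested beta genes did, 3 higher and 3 lower. Together these are 43 of 90 V genes, while 19.0% of the 12223 genes tested passed in the same comparison, 13.0% higher and 6.05% lower. The size of the differences was also larger than usual: the median absolute log2 difference was 0.49 over the 90 V genes and 0.16 over all genes tested. The test was limma on log2(FPKM + 1), with V genes first scaled to equal chain sums in every library, and Benjamini-Hochberg adjustment over all 12223 genes at 0.05. Tested genes were those at 1 FPKM or more in at least 3 libraries. This took 90 of the 103 members, none of them through a single group alone, and left out 13 low members such as Trav11, Trav18, Trav20 and Trbv10.

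Without any test, the alpha shares of the Mef2c libraries lay outside the range of the other 15 libraries for 28 of 69 genes, above it for 15 and below it for 13. The same held for 2.90% of the 12223 genes tested. For alpha genes in any other group this count was 0 or 1, beside 5.77% of all genes tested for the Dyrk1 group, 1.48% for HDAC1, 1.92% for HDAC2, 1.62% for Mef2d and 7.34% for wild type. The total shift between libraries was measured as the summed gain in share of the genes that are higher in either of them. It was between 17.4 and 26.4 percentage points of the alpha sum from a Mef2c library to a library of any other group. Between libraries of the same group it was between 6.54 and 11.7 points, and between libraries of the other 5 groups between 6.22 and 12.4 points. The ranges with and without a Mef2c library did not overlap.

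**Figure D2:**
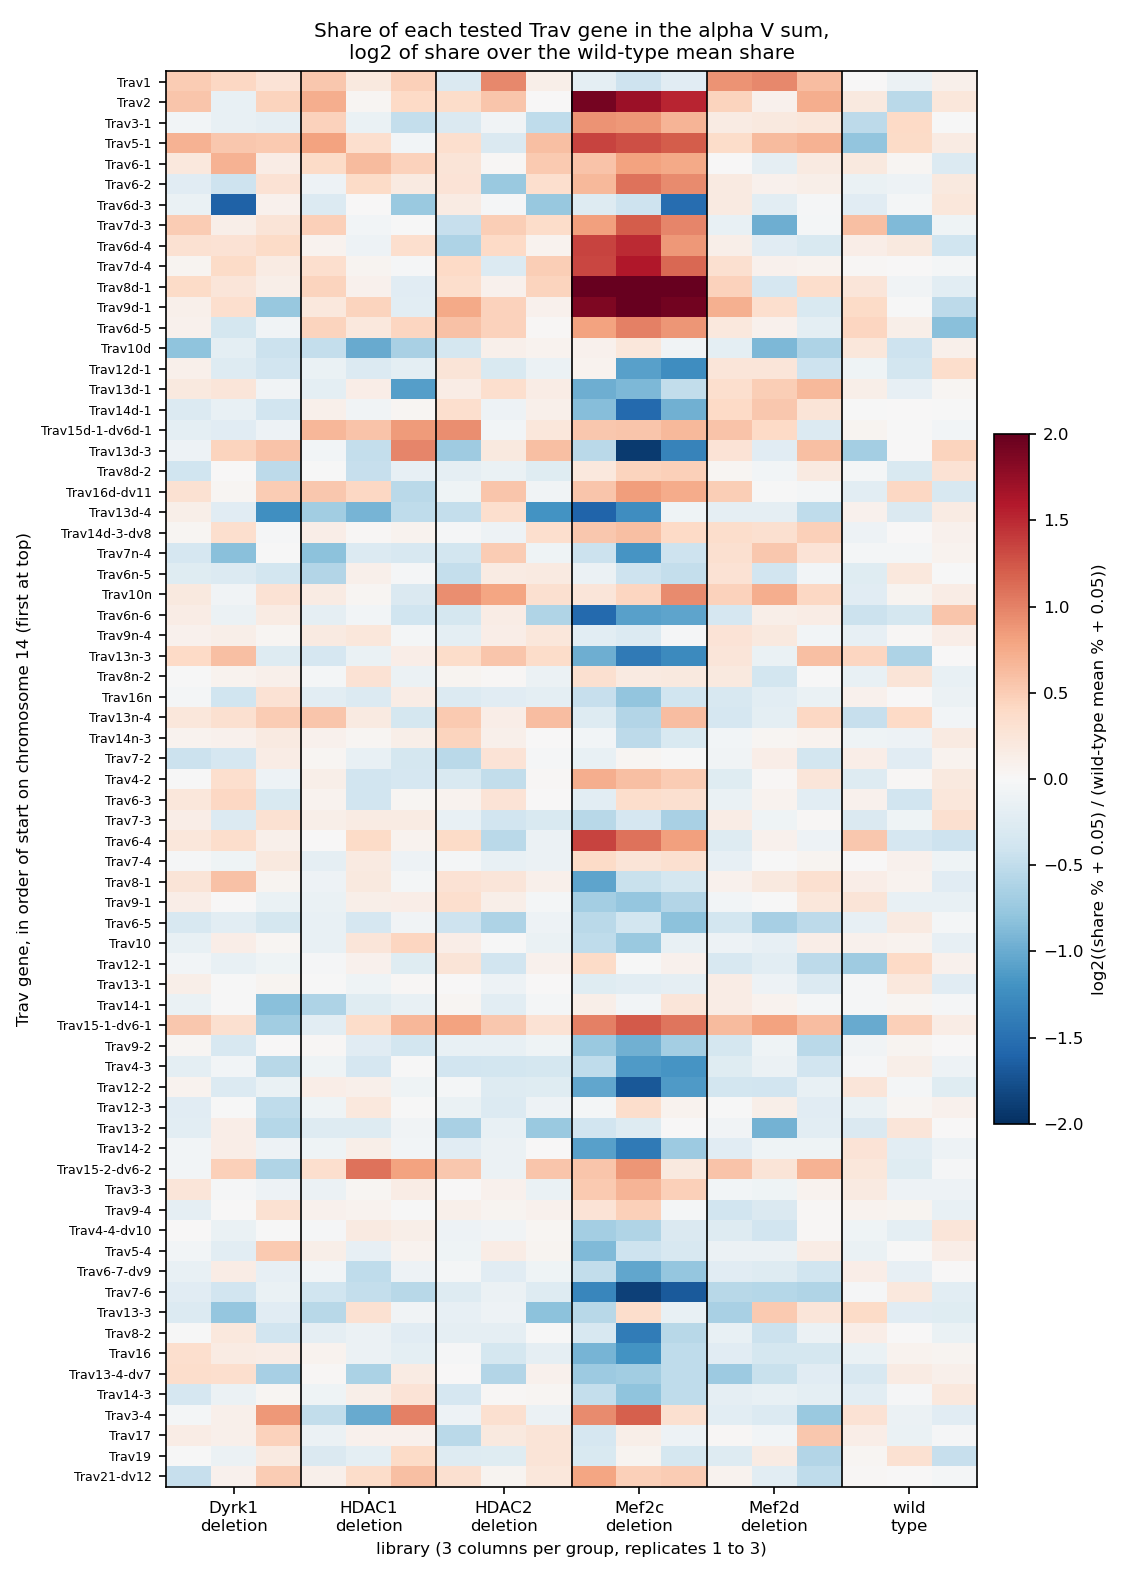
Share of each of 69 tested Trav genes in the alpha V sum of each library, as log2((share in percent + 0.05) / (wild-type mean share in percent + 0.05)), red above and blue below the wild-type mean. Rows follow the order of the genes on chromosome 14 and columns are 3 libraries per group. The 3 Mef2c columns are red from Trav2 to Trav6d-5, save Trav6d-3, and blue for genes such as Trav14d-1, Trav12-2, Trav14-2 and Trav7-6.

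The 6 largest share differences by the naming rule were 5 gains and 1 loss. Trav8d-1 made up 2.95, 3.37 and 2.73% of the alpha sum in Mef2c libraries, against 0.767, 0.606 and 0.547% in wild type. The 12 libraries of the other deletion groups ranged between 0.494 and 0.899%, so no library outside the Mef2c group came near its 3. The difference was 1.99 on the log2 scale (SE 0.18, limma adjusted p = 2.75e-06). It rests on 132, 141 and 130 reads in the Mef2c libraries and 40, 31 and 25 reads in wild type. As a share of reads, replicate 2 of the Mef2c group was at 3.53% (95% Wilson interval 3.00 to 4.15%) and replicate 1 of wild type at 0.804% (0.591 to 1.09%), intervals that cover counting error only.

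Trav9d-1, the next member after Trav8d-1 along the locus, made up 1.87, 2.21 and 1.96% in Mef2c libraries and 0.637, 0.475 and 0.315% in wild type. The groups did not overlap, and the log2 difference was 1.80 (SE 0.26, limma adjusted p = 0.000277). Trav2 made up 1.68, 1.44 and 1.26% in Mef2c libraries and 0.471, 0.264 and 0.483% in wild type (log2 1.53, SE 0.21, limma adjusted p = 0.000181). Trav7d-4 made up 3.02, 3.67 and 2.66% in Mef2c libraries and 1.19, 1.18 and 1.15% in wild type (log2 1.29, SE 0.16). In each of these genes the lowest Mef2c library was above the highest of all 15 others. Trav5-1 was at 1.74, 1.67 and 1.59% in Mef2c libraries and at 0.357, 0.865 and 0.738% in wild type (log2 1.23, SE 0.24). The other gains past 1 on the log2 scale were Trav6d-4 (1.12), Trav15-1-dv6-1 (1.06) and Trav6-4 (1.04).

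Trav7-6 fell furthest. It made up 0.470, 0.301 and 0.352% of the alpha sum in Mef2c libraries, against 1.21, 1.44 and 1.06% in wild type (log2 -1.39, SE 0.11, limma adjusted p = 7.98e-07). Its libraries in the other deletion groups ranged between 0.793 and 1.14%, above all 3 Mef2c libraries. Trav12-2 was at 1.12, 0.697 and 1.05% in Mef2c libraries and at 2.80, 2.30 and 1.98% in wild type (log2 -1.19, SE 0.15). Trav14d-1, second in mean share, was at 2.48, 1.5 and 2.28% in Mef2c libraries and at 4.47, 4.54 and 4.47% in wild type (log2 -1.08, SE 0.14). Trav6n-6 (log2 -1.05), Trav14-2 (log2 -1.0) and Trav4-3 (log2 -0.88) were also lower in each Mef2c library than in each wild-type library. No Mef2c library overlapped wild type in any of the 37 called alpha genes. Those genes were chosen by a test of the same difference, so this adds no support.

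Genes used often moved as well as rare ones. Of the 8 alpha genes with the highest mean share, 5 passed the test in the Mef2c group. Trav3-3 was at 5.33% ± 0.387 in Mef2c libraries and 3.59% ± 0.405 in wild type (SD, n = 3 each; log2 0.55, SE 0.10). Trav7-4 and Trav14d-3-dv8 were higher too (log2 0.32 and 0.50), and Trav4-4-dv10 was lower at 2.92% ± 0.432 in Mef2c libraries and 4.18% ± 0.677 in wild type (log2 -0.49, SE 0.12). Trav14d-1 is given above. Trav7-2 was at 5.09% ± 0.342 in Mef2c libraries and 5.23% ± 0.665 in wild type (log2 -0.03, SE 0.19), and Trav14n-3 and Trav13-1 did not pass either (log2 -0.28 and -0.20). Evenness was little different, at 53.3 ± 0.713 effective alpha genes in Mef2c libraries and 51.3 ± 0.628 in wild type (SD, n = 3 each), while 40 to 42 alpha genes held 1% or more in Mef2c libraries and 33 to 38 in wild type.

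**Figure D3:**
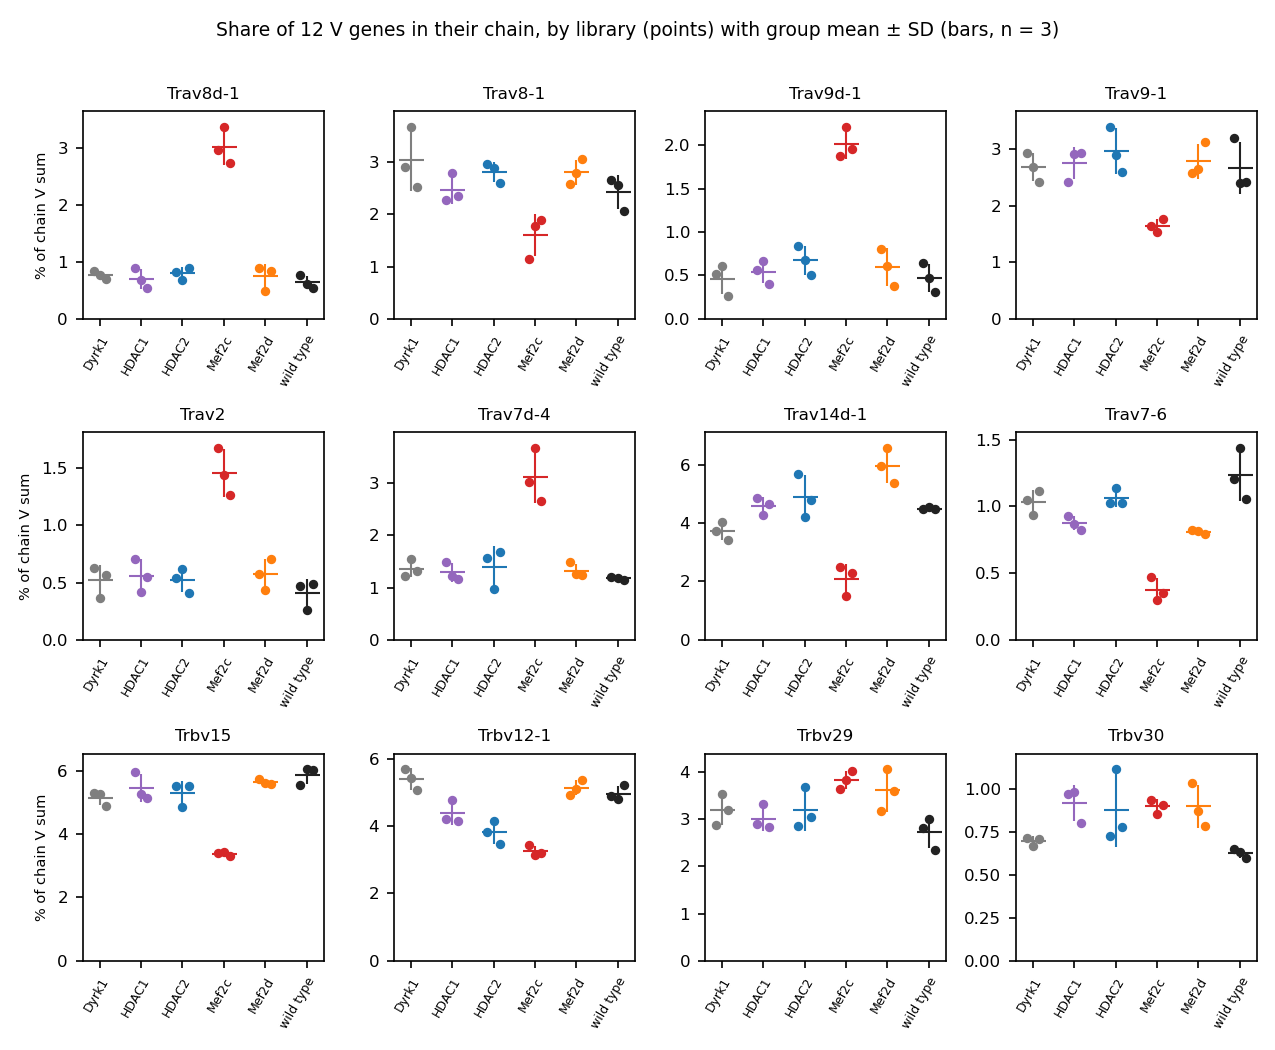
Share of 12 V genes in the alpha or beta V sum of each library (points, percent) by group, with mean ± SD (bars, n = 3). Trav8d-1, Trav9d-1, Trav2 and Trav7d-4 are higher in the 3 Mef2c libraries than in all 15 others, Trav14d-1, Trav7-6 and Trbv15 are lower, and Trav8-1 and Trav9-1 are lower while their d copies are higher.

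Near-identical copies of a gene went opposite ways. Trav8-1, the copy without a letter, was at 1.15, 1.78 and 1.89% in Mef2c libraries and at 2.67, 2.55 and 2.06% in wild type (log2 -0.57, SE 0.16, limma adjusted p = 0.0238), while Trav8d-1 rose. Within the V exon, the 3 bases marked above are what separates the reads of the pair. Trav9-1 was at 1.64, 1.54 and 1.77% in Mef2c libraries and at 3.2, 2.4 and 2.42% in wild type (log2 -0.64, SE 0.12), while Trav9d-1 rose. Added together, the 2 Trav8-1 copies made up 4.62% ± 0.522 in Mef2c libraries and 3.07% ± 0.423 in wild type (log2 0.57, limma adjusted p = 0.00493), a smaller difference than the 1.99 of Trav8d-1 alone. The Trav9-1 copies added to 3.76% ± 0.126 in Mef2c libraries and 3.29% ± 0.616 in wild type and no longer passed (log2 0.20, limma adjusted p = 0.288). The Trav14-1 copies added to 4.96% ± 0.780 in Mef2c libraries and 7.16% ± 0.115 in wild type (log2 -0.53, limma adjusted p = 0.00929), a fall that lay in Trav14d-1, since Trav14-1 was at 2.88% ± 0.297 in Mef2c libraries and 2.67% ± 0.0734 in wild type.

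The same split was seen in Trav7-3, where Trav7d-3 was higher (log2 0.99) and Trav7-3 lower (log2 -0.45), in Trav14-3, where Trav14d-3-dv8 was higher (log2 0.50) and Trav14-3 lower (log2 -0.53), and in Trav6-5, where Trav6d-5 was higher (log2 0.84) and Trav6-5 lower (log2 -0.54). Trav6d-4 and Trav6-4 rose together. Over the alpha genes by letter, 7 of 17 tested d copies were higher and 2 lower, 0 of 10 tested n copies were higher and 3 lower, and 10 of 42 tested genes without a letter were higher and 15 lower. As summed shares, d copies made up 22.2% ± 1.42 in Mef2c libraries and 15.2% ± 0.539 in wild type, and n copies 12.5% ± 1.45 in Mef2c libraries and 15.1% ± 1.25 in wild type. The d copies were also above wild type in every Mef2d library, at 17.97% ± 0.988, and in every HDAC2 library, at 16.6% ± 0.698. The HDAC2 margin was slight, with its lowest library at 15.796% and the highest wild-type library at 15.788%. Genes without a letter made up 65.4% ± 0.184 in Mef2c libraries, 66.1% ± 0.707 in Mef2d, 67.3% ± 0.552 in HDAC2 and 69.7% ± 0.938 in wild type. Mef2d and HDAC2 libraries thus lay below wild type as well. In both sums the Dyrk1 and HDAC1 libraries overlapped wild type. With the d and n copies of each gene added to the copy without a letter, 24 of 43 alpha units passed the test, 11 higher and 13 lower. In the fit with copies kept apart 19.0% of all genes tested passed, and the share in the fit with copies added is not given here. How reads that match several copies were counted is not given in the sources used here, so a move between copies and a move in which copy a read was assigned to were not told apart. With no strain named, the alpha V alleles and copies that each mouse line carries are not known here, and a difference in these between lines cannot be told apart from a difference in usage.

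The differences tended to follow the order of the genes along the locus, which spans 1448 kb from Trav1 to Trav21-dv12. Large exceptions were Trav14d-1 at 428 kb (log2 -1.08), Trav6-4 at 1026 kb (log2 1.04) and Trav15-1-dv6-1 at 1132 kb (log2 1.06). In the first 250 kb, the end farthest from the J segments, 5 of 6 tested genes were higher and 0 lower, with a median log2 difference of 0.80. In the next 250 kb 6 of 12 were higher and 2 lower, with a median of 0.65. All members of this stretch are d copies, so the pattern by position and the pattern by letter rest partly on the same genes. Between 500 and 1000 kb 2 of 17 were higher and 3 lower, and between 1000 and 1250 kb 4 of 21 were higher and 8 lower. In the last stretch, from 1250 kb on, 0 of 13 were higher and 7 lower, with a median of -0.49. As summed shares, the first 250 kb made up 7.42% ± 0.309 of the alpha sum in Mef2c libraries and 3.86% ± 0.445 in wild type, and the last stretch 12.3% ± 0.478 in Mef2c libraries and 16.5% ± 0.621 in wild type (SD, n = 3 each). The Mef2d group lay on the same side of wild type by less, with 5.25% ± 0.0871 in the first 250 kb and 14.3% ± 0.545 in the last stretch, and did not overlap wild type in either. Dyrk1 and HDAC1 libraries also lay above wild type in the first 250 kb (4.63% ± 0.169 and 4.82% ± 0.648), and HDAC2 libraries overlapped it. In the last stretch Dyrk1, HDAC1 and HDAC2 libraries overlapped wild type. Trav1, first in the locus, did not follow its neighbours, with 0.702, 0.594 and 0.680% in Mef2c libraries and 0.808, 0.740 and 0.875% in wild type (log2 -0.24, SE 0.20).

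**Figure D4:**
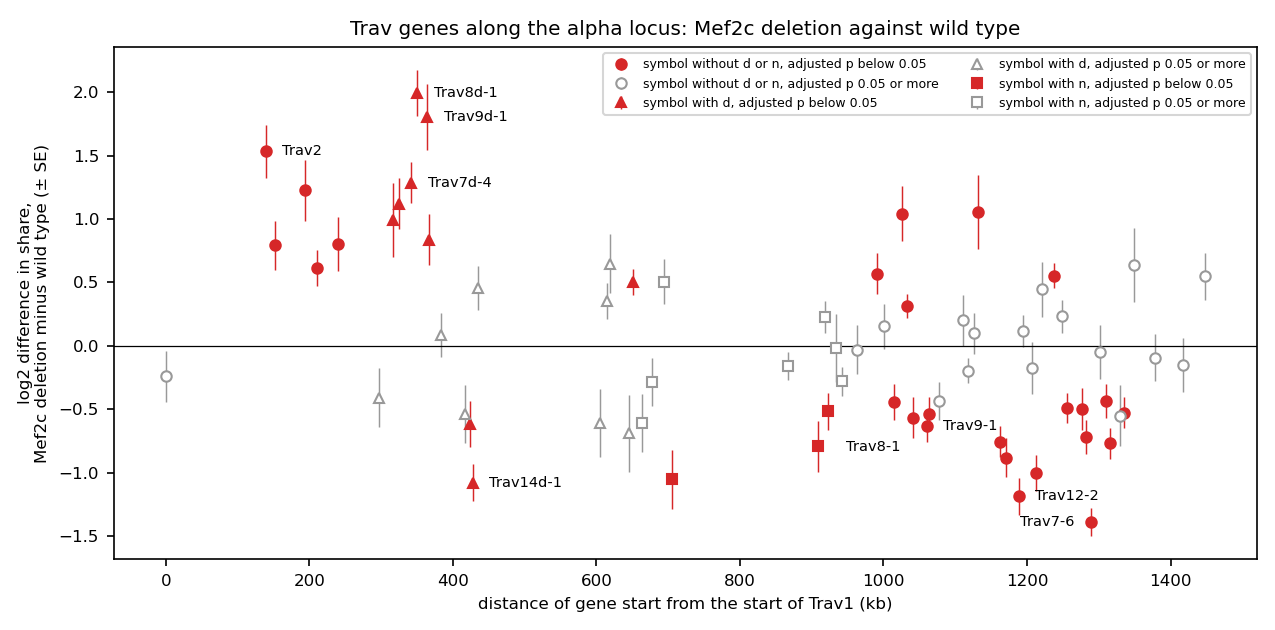
Log2 difference in share, Mef2c deletion minus wild type, with its SE, for each of 69 tested Trav genes against the distance of its start from the start of Trav1 in kb. Filled red symbols passed the test, and circles, triangles and squares mark genes without a letter, d copies and n copies. Called genes from Trav2 to Trav6d-5 are higher, and the 7 called genes from 1250 kb on are lower.

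Beta V genes moved less. Trbv15 was at 3.39, 3.45 and 3.30% of the beta sum in Mef2c libraries, against 5.54, 6.06 and 6.01% in wild type (log2 -0.78, SE 0.07, limma adjusted p = 1.25e-06). Its libraries in the other deletion groups ranged between 4.85 and 5.97%, above all 3 Mef2c libraries. Trbv12-1 was at 3.44, 3.14 and 3.19% in Mef2c libraries and at 4.89, 4.79 and 5.21% in wild type (log2 -0.60, SE 0.07), and its neighbour Trbv12-2 at 3.53% ± 0.255 in Mef2c libraries and 4.46% ± 0.440 in wild type (log2 -0.33, SE 0.10). Higher were Trbv29, at 3.82% ± 0.192 in Mef2c libraries and 2.72% ± 0.338 in wild type (log2 0.49, SE 0.12), Trbv30 (log2 0.48, SE 0.13) and Trbv13-1 (log2 0.19, SE 0.05). Unlike the falls of Trbv15 and Trbv12-1, these 3 gains did not pass against the mean of the other deletion groups, a comparison chosen after the values were seen (limma adjusted p = 0.150, 0.669 and 0.119). The fall of Trbv12-2 did not pass in that comparison either. The total shift of the beta sum was between 5.38 and 8.59 percentage points from Mef2c to wild-type libraries, and between 1.61 and 4.49 points within groups. Between libraries of different groups other than Mef2c it was between 3.02 and 6.76 points, which overlaps the Mef2c range.

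**Figure D5:**
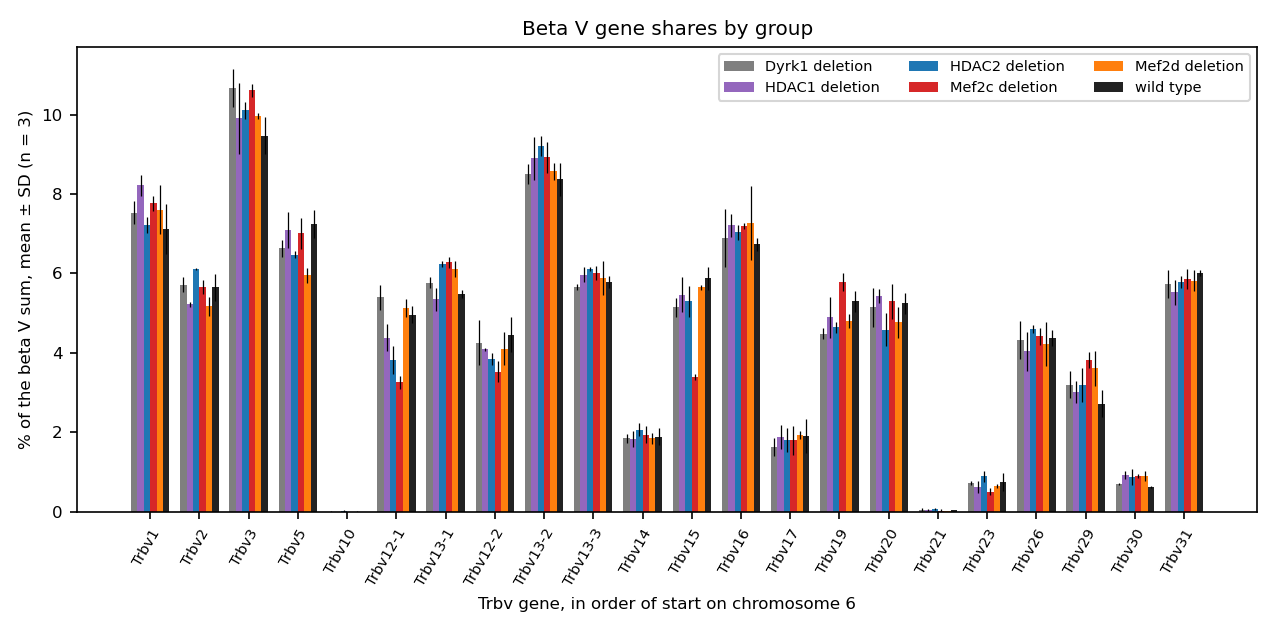
Mean share of each of 22 Trbv genes in the beta V sum (percent, bars from 0) with SD (n = 3) for the 6 groups, in order of the genes on chromosome 6. Trbv15 and Trbv12-1 are lower in the Mef2c group (3.38% and 3.26%) than in wild type (5.87% and 4.96%), and most other genes differ by little between groups.

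Set against the mean of the other 4 deletion groups in place of wild type, 37 of 69 alpha genes and 3 of 21 beta genes passed by share in the Mef2c group, 17 higher and 23 lower, beside 8.93% of all genes tested, 4.70% higher and 4.23% lower. Trav8d-1 (log2 1.81, SE 0.14), Trav9d-1 (log2 1.61, SE 0.20) and Trav2 (log2 1.21, SE 0.17) were higher and Trav14d-1 (log2 -1.15, SE 0.11), Trav12-2 (log2 -1.07, SE 0.12) and Trbv15 (log2 -0.66, SE 0.05) lower. No wild-type library enters these differences, although the estimate of spread behind their SE and calls is shared by all 18 libraries. Trbv19 was higher in the Mef2c group in this comparison (log2 0.30, SE 0.05), and did not pass against wild type (log2 0.13, SE 0.07).

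In the other deletion groups few shares differed from wild type, and fewer than among all genes tested. In the Dyrk1 group 1 of 90 passed, beside 17.2% of all genes, in the HDAC1 group 2, beside 12.5%, in the HDAC2 group 4, beside 25.5%, and in the Mef2d group 8, beside 21.9%. At an unadjusted p under 0.05 these counts were 6, 9, 14 and 17. The share of all genes at that threshold is not given here, so these counts cannot be set beside it. The counts moved by more than 1.5 times with single libraries: leaving out 1 library at a time gave 0 to 1 in the Dyrk1 group, 0 to 3 in the HDAC1 group, 2 to 5 in the HDAC2 group and 4 to 9 in the Mef2d group. The Dyrk1 call was lost when replicate 2 or 3 of its own group, or 1 or 3 of wild type, was left out. Leaving out HDAC1 replicate 1 or 2 removed both HDAC1 calls, and leaving out HDAC1 replicate 3 or wild-type replicate 1 or 3 left 1. The HDAC2 count was 2 without wild-type replicate 1, and the Mef2d count was 4 without Mef2d replicate 1 or wild-type replicate 3 and 5 without Mef2d replicate 2. An F test over all 6 groups by share called 49 of 90 V genes, 41 alpha and 8 beta, beside 38.6% of all genes tested, with the lowest p for Trav7-6, Trbv15, Trav8d-1 and Trbv12-1.

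The beta gene Trbv30 was called higher in 3 of these 4 groups. It made up 0.972, 0.980 and 0.798% of the beta sum in HDAC1 libraries (log2 0.50, SE 0.13), 0.726, 1.12 and 0.779% in HDAC2 libraries (log2 0.42, SE 0.13) and 1.03, 0.870 and 0.786% in Mef2d libraries (log2 0.47, SE 0.13). The Dyrk1 libraries were at 0.714, 0.665 and 0.708% (log2 0.14, SE 0.13). Wild type was at 0.647, 0.634 and 0.596%, below every library of these 4 groups. These comparisons share the wild-type libraries, and all 3 calls were lost without wild-type replicate 3 (limma adjusted p = 0.0916, 0.1004 and 0.0782). The HDAC1 call was also lost without HDAC1 replicate 1 or 2, the Mef2d call without Mef2d replicate 1, and the HDAC2 call without wild-type replicate 1 or HDAC2 replicate 2. The HDAC2 call was lost as well in the HDAC2 and wild-type libraries alone (limma adjusted p = 0.0840) and without the filter on low values (0.0535). Without HDAC2 replicate 2 the HDAC2 difference was 0.24 on the log2 scale (limma adjusted p = 0.111). Trbv13-1 was higher at 6.25% ± 0.0750 in HDAC2 libraries and 6.11% ± 0.200 in Mef2d libraries, against 5.48% ± 0.0917 in wild type (log2 0.19 and 0.15, SE 0.05 each).

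Trbv19 was the only V gene called in the Dyrk1 group, at 4.48% ± 0.132 in Dyrk1 libraries and 5.30% ± 0.266 in wild type (log2 -0.24, SE 0.07, limma adjusted p = 0.0294). In the HDAC1 group the second call was Trav7-6, at 0.929, 0.870 and 0.824% in HDAC1 libraries and 1.21, 1.44 and 1.06% in wild type (log2 -0.42, SE 0.11, limma adjusted p = 0.0242). With 1 library left out, this call was kept only without wild-type replicate 3 (limma adjusted p = 0.0339). Leaving out any other HDAC1 or wild-type library gave 0.0548 to 0.0735. It was also lost in the HDAC1 and wild-type libraries alone (0.0641). In the HDAC2 group Trbv12-1 fell to 3.82% ± 0.346, against 4.96% ± 0.220 in wild type (log2 -0.37, SE 0.07), and Trav10n was higher at 1.45% ± 0.317 in HDAC2 libraries and 0.871% ± 0.120 in wild type (log2 0.63, SE 0.18). The Trav10n call was lost without HDAC2 replicate 1 (limma adjusted p = 0.0871), HDAC2 replicate 2 (0.0625) or wild-type replicate 1 (0.0756).

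Of the Mef2d calls, Trav1 had the largest difference. Trav1 supplies the alpha chain of mucosal-associated invariant T cells when joined to Traj33. It made up 1.55, 1.63 and 1.27% of the alpha sum in Mef2d libraries and 0.808, 0.740 and 0.875% in wild type (log2 0.76, SE 0.20, limma adjusted p = 0.0165), and the groups did not overlap. The call was lost without Mef2d replicate 1 (limma adjusted p = 0.0584), without Mef2d replicate 2 (0.0602) and without the libraries high in B cell markers (0.0753). Trav7-6 was lower at 0.822, 0.815 and 0.793% in Mef2d libraries (log2 -0.51, SE 0.11), Trav6-5 lower (log2 -0.48, SE 0.13), Trav14d-3-dv8 higher (log2 0.37, SE 0.10) and Trbv29 higher (log2 0.40, SE 0.12). The Trav6-5 call was lost without Mef2d replicate 2 or wild-type replicate 2 or 3, that of Trav14d-3-dv8 without Mef2d replicate 1 or 3 or wild-type replicate 1, and that of Trbv29 without Mef2d replicate 2 or 3 or wild-type replicate 3. Trbv5 was lower at 5.95% ± 0.189 in Mef2d libraries and 7.25% ± 0.353 in wild type (log2 -0.28, SE 0.06).

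By level, without scaling to the chain sums, 5 V genes passed in the Dyrk1 group, beside 17.3% of all genes, and 8 in the HDAC1 group, beside 12.5%. The 5 of the Dyrk1 group were beta genes and all lower, beside 6.19% of all genes lower, with Trbv19 (log2 -0.45) and Trbv15 (log2 -0.40) furthest. Of the 8 in the HDAC1 group 7 were beta genes and all 8 lower, beside 2.32% of all genes lower, with Trav7-6 (log2 -0.44) and Trbv12-1 (log2 -0.37) furthest. These are groups whose whole beta V sum was lower. Leaving out any 1 of its 6 libraries cut the HDAC1 count to between 2 and 4, and the Dyrk1 count was 3 when replicate 3 of its own group or of wild type was left out. In the HDAC2 group 6 passed by level, beside 25.6%, 2 alpha and 4 beta, and between 1 and 4 without any 1 of its 6 libraries. In the Mef2d group 7 passed, beside 21.9%, and the count was 4 without Mef2d replicate 1 or 2 and 3 without wild-type replicate 3. In the Mef2c group 42 passed by level, beside 19.0% of all genes.

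Trav11 joined to Traj18 makes the alpha chain of invariant natural killer T cells. Trav11 was counted at 0 to 3 reads a library, with 0 reads in the 3 wild-type libraries, and 0 of 4976 alpha reads in replicate 1 allows a share of up to 0.0603% by the floor of 3 reads (95% Wilson upper limit 0.0771%). With 0.410% of its windows unique, a low value says little of its use. Traj18 was at 9.13 ± 3.76 FPKM in Mef2c libraries and 4.14 ± 1.05 FPKM in wild type, and it passed the level test as higher in all 5 deletion groups, up to 19.9 ± 3.00 FPKM in the HDAC1 group (log2 2.04). A list of 6 genes linked to invariant T cells held Zbtb16, Traj18, Traj33, Klrb1c, Slamf6 and Mr1. Not all are limited to these cells, and Klrb1c was also listed for CD8 T and natural killer cells. Their summed level ranged between 91.7 and 117 FPKM in Mef2c libraries and between 81.9 and 92.3 FPKM in wild type. By level 1 was higher and 1 lower, beside 19.0% of all genes in either direction. The part of such cells in the V shares was not tested.

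Of 12 genes of the receptor complex and of Treg identity, 1 passed by level in the Mef2c group, beside 19.0% of all genes, the CD3 chain gene Cd3g, which was lower (log2 -0.26, limma adjusted p = 0.0206). Cd3g was lower in the Mef2d group too (log2 -0.58). In the other groups 2 passed in Dyrk1, beside 17.3%, 1 in HDAC1, beside 12.5%, 1 in HDAC2, beside 25.6%, and 3 in Mef2d, beside 21.9%. Trbc1 and Trbc2 did not pass in any group. Foxp3 and Cd4 did not pass either (log2 0.11 and 0.16 in the Mef2c group). Of 5 tested genes of V(D)J recombination, 2 passed by level in the Mef2c group, 2 in the Mef2d group and 1 in the HDAC2 group, all higher, beside the same shares of all genes. Dntt, which encodes the transferase that adds bases at V(D)J joints, was at 4.49 ± 0.120 FPKM in Mef2c libraries and 2.53 ± 1.02 FPKM in wild type (log2 0.68, limma adjusted p = 0.0458), and at 4.53 ± 0.885 FPKM in Mef2d libraries (log2 0.68). Rag1, one of the recombinase genes, was below the filter, at 0.654 ± 0.188 FPKM in Mef2c libraries and 0.288 ± 0.122 FPKM in wild type.

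Genes beside the V loci, other than receptor segments, were counted for comparison. Within 2 Mb of the alpha V genes 13 of 73 tested genes passed by level in the Mef2c group, 17.8%, against 27.0% over chromosome 14 and 19.0% of all genes tested. Within 2 Mb of the beta V genes 8 of 20 passed, 40.0%, against 18.6% over chromosome 6. In the same stretch 5 of 20 passed in the Dyrk1 group (25%), 4 in HDAC1 (20%), 6 in HDAC2 (30%) and 6 in Mef2d (30%). Over chromosome 6 these groups were at 12.4, 14.4, 28.8 and 22.3%. With Mef2c set against the mean of the other 4 deletion groups, 1 of 20 passed (5%), against 10.1% over chromosome 6. B cell markers summed to between 62.4 and 130 FPKM in Mef2c libraries and between 29.3 and 48.8 FPKM in wild type. Without the 3 libraries high in B cell markers, 31 V genes passed by share in the Mef2c group, and Trav8d-1 (log2 2.01) and Trav7-6 (log2 -1.51) differed by as much. The share of all genes passing in that fit is not given here. Markers of CD8 T and natural killer cells summed to between 53.4 and 78.6 FPKM in Mef2c libraries and between 64.7 and 98.2 FPKM in wild type, and those of gamma-delta T cells to between 83.5 and 95.04 FPKM in Mef2c libraries and between 62.9 and 123 FPKM in wild type. By level 1 of 7 tested gamma-delta markers was higher, 1 of 8 CD8 T and natural killer markers lower, and 0 of 10 B cell markers passed, beside 19.0% of all genes. The part of these cells in the V shares was not tested.

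The spread between libraries of a group was mostly wider than counting reads gives. For 3 libraries counting alone gives a median ratio of about 0.693 between the variance between replicates and the counting variance. Over alpha genes with a mean of at least 20 reads, this median ratio was 1.19 in the Mef2c group and 1.56 in wild type, and between 0.933 and 1.56 over the 6 groups. For beta genes it was between 0.658 in the HDAC2 group and 2.19 in the HDAC1 group, with 1.03 in the Mef2c group and 1.65 in wild type. Trav8d-1 in wild type, with 25 to 40 reads a library, shows the depth behind a gene under 1% of the alpha sum, and small differences in such genes were not detectable at this depth.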

How the data were processed

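RNA from sorted Treg was sequenced after NEBNext Ultra II library preparation, per the labels' protocols, and the submitters' processing notes name STAR, HTSeq and mm10. The deposited table names no unit: its values were read as FPKM, since the authors' values times gene length fall on whole multiples of 1 read per library, and further steps by the authors are not given in the sources used here. All 103 V genes came out whole within 0.03 of a read, 13 with the annotated length and 90 with a length fitted to the values. For those 90 the length was chosen to give whole reads, after depth was refined on V genes. Their wholeness is therefore a condition of the fit and no check on it.

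Symbols and sequences came from GENCODE M21. Values were tested as log2(FPKM + 1) with limma 3.58.1 (trended moderation, group means over 18 libraries, 12 residual degrees of freedom, adjusted p below 0.05 over 12223 genes), as levels and after scaling V genes to equal chain sums. Fold changes understate the change of low genes. The fit was tested on simulated data. Named genes were the 8 highest per chain, up to 6 called per comparison whose libraries do not overlap wild type (at least 5 FPKM in the higher group), the lowest F test p, threshold genes and Trav1 and Trav11; others named, such as copies and locus neighbours, were chosen after their values were seen. Deviations from the group mean had a mean correlation of -0.000335 over 45 same-numbered pairs of libraries (from -0.453 to 0.464). Over 90 pairs with different numbers it was 0.00125 (from -0.435 to 0.471). Such a mean cannot exclude pairing in some of the groups. The main fit used no pairing. The members, lists and alternatives were chosen with earlier results of these data known.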

Additional observations from a re-analysis of the deposited data

Results flagged for a closer look

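By a test of the difference itself, V gene shares in the Mef2c group differed from the mean of the other 4 deletion groups for 40 of 90 tested genes (limma, adjusted over 12223 genes), beside 8.93% of all genes tested. The comparison was chosen after the data were seen. Among the genes named, Trav8d-1 differed by 1.81 on the log2 scale, Trav9d-1 by 1.61, Trav14d-1 by -1.15 and Trbv15 by -0.66.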

How the results depend on the processing

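By share, the Mef2c count of 43 V genes lay between 30 and 43 under every other setting run for it, with 30 when d and n copies were summed, 31 without the libraries high in B cell markers and 35 in the 6 libraries alone. Summing copies also left fewer units to test: 24 of 43 alpha units passed, beside 37 of 69 alpha genes unsummed. The other counts given below with copies summed are likewise out of fewer units. The share of all genes passing under each of these other settings is not given here. Leaving out 1 library gave 31 to 41 by share and 29 to 40 by level, against 42. Likewise leaving out 1 library, the count against the other 4 deletion groups (40 by share, 45 by level) was 28 to 44 by share and 31 to 47 by level, and the F test count (49 in each) 38 to 52 by share and 37 to 52 by level. With copies summed these were 27 and 31 against the other deletions and 33 and 35 by F test, and without the libraries high in B cell markers 31 and 36, and 33 and 39, by share and by level. The smaller counts moved more. Without a filter on low values the level counts were 3 in the Dyrk1 group and 5 in the HDAC1 group. In the 6 libraries alone the Dyrk1 counts were 0 by level and 0 by share. Without the libraries high in B cell markers the Dyrk1 share count was 0 and the Mef2d counts were 4 by level and 4 by share, and with copies summed the Mef2d level count was 4. Leaving out 1 library at a time gave by level 3 to 7 for Dyrk1, 2 to 4 for HDAC1, 1 to 4 for HDAC2 and 3 to 9 for Mef2d, and by share 0 to 1, 0 to 3, 2 to 5 and 4 to 9 in the same order. The cause was not tested. Of 262 alternatives run for 19 named share differences, 221 kept the call, 41 lost it and 0 changed direction. A fit without the trend of variance on level, added after the data were seen, gave 43 Mef2c calls by share.

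With the replicate number as a block (replicate block), the pairing alternative, the Mef2c counts were 43 by share and 42 by level, and the other counts stayed within 1.5 times of those without it. RLE scaling gave 44 Mef2c calls by level. Depth limits the rare genes: members left untested reached at most 19 reads in a library.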
